A study of Mus musculus with 6 samples.

Results

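The vascular endothelium of the mouse testis was followed through 10 genes that mark endothelial cells: Pecam1, Cdh5, Kdr, Flt1, Tek, Tie1, Vwf, Eng, Emcn and Esam. They were read in whole testes of wild-type mice (Wt) and of Dazap1 mutants homozygous for the Floxed with Neo allele (Fn). All mice were of a mixed C57BL/6 and 129 background and were sampled at postnatal day 21 (P21), with 3 samples of each genotype and a separate Affymetrix Mouse Genome 430 2.0 array for each sample. Members were all probe sets whose annotated symbol is exactly one of the 10 names, which gave 15 probe sets of the 45037 in the table, and the rule itself uses no measured value. The Fn allele is present in every cell of these mice, and its product is a DAZAP1 protein lengthened between the domains that bind RNA. Because few homozygotes outlive the perinatal period, the Fn samples come from a small surviving class that grows poorly. The authors were concerned that, with this poor growth, pachytene spermatocytes of Fn mice at P21 might lag behind those of Wt mice. Genotype and stage of development therefore cannot be told apart here.

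Endothelial cells line blood vessels. In the testis the vessels run in the interstitium between the seminiferous tubules and bring hormones, oxygen and nutrients to Leydig, Sertoli and germ cells. Vascular endothelial growth factors act through the receptor tyrosine kinases encoded by Kdr and Flt1, and angiopoietins act through the receptor encoded by Tek, with the related Tie1 as a partner. Pecam1, Cdh5 and Esam encode adhesion molecules of endothelial cell contacts, Eng encodes endoglin, a co-receptor for ligands of the TGF-beta and BMP family, Emcn encodes the sialomucin endomucin of capillary and venous cells, and Vwf encodes von Willebrand factor, which platelets bind. Several of these genes are also transcribed outside the endothelium, among them Pecam1, Vwf and Esam in megakaryocytes and platelets and Eng in stromal cells and macrophages.

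The values are MAS5 signals, linear intensities that the authors deposited after scaling every array to a common level. Their log2 values were compared with limma over 27022 probe sets, those with a geometric mean over the 6 arrays of at least 48.0 (the 40th percentile), with Benjamini-Hochberg adjustment over all of them. A change is the mean log2 signal in Fn minus that in Wt, and "rose" means an adjusted p under 0.05. The median change of the 13447 genes tested, each read by its brightest probe set, was 0.32 as deposited and 0.17 once each array was centred on its median. Dazap1 itself fell in Fn testes by 0.77 on the log2 scale (adjusted p = 6.7e-05 from limma), and where its probe set lies relative to the altered part of the gene is not known here. The labels call the samples biological replicates without naming litters or animals, so a p-value speaks only of the spread among these samples, which may be technical. In whole-testis RNA, fewer cells of a type and less RNA per cell cannot be told apart.

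All 10 endothelial genes had a probe set that passed the filter, as did 13 of their 15 probe sets. By its brightest probe set, 4 of the 10 genes rose in Fn testes and 0 fell. These were Eng, Emcn, Esam and Vwf. With the replicate number as a block 3 of 10 rose, beside 45.8% of all genes, and Vwf was the one lost (adjusted p = 0.0593 from limma). Limma called none of the 10 lower. Among all genes tested, 44.9% rose and 24.7% fell, so the share of endothelial genes that rose lies near the background. All 10 changes were above 0 on the deposited scale, with a median of 0.49 against 0.32 for all genes, of which 64.2% had a change above 0. Over probe sets, 5 of 13 rose and 0 fell, where the background is 41.8% and 20.2%. The 2 genes with more than a 2-fold higher signal, Eng and Emcn, stand beside 11.8% of all genes. All 3 Fn values lay above all 3 Wt values in 4 of the 10 genes, a pattern found in 48.9% of the genes tested. The opposite pattern was found in 0 of the 10 and in 26.6% of all genes.

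Eng and Emcn changed the most of the 10 genes. The 250 bases before the RefSeq start of each are shown because the promoter table holds no window for Esam or Vwf. Capitals mark every AGGAAG or its reverse complement CTTCCT, a form of the sites bound by ETS factors, which are regulators of many endothelial genes.
Eng, chr2:32646345-32646594, plus strand, GRCm38.p6: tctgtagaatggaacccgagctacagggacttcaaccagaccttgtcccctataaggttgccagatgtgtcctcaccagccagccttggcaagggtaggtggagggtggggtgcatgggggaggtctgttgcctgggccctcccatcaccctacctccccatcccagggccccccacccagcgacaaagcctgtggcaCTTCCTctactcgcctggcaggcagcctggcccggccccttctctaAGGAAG
Emcn, chr3:137340828-137341077, plus strand, GRCm38.p6: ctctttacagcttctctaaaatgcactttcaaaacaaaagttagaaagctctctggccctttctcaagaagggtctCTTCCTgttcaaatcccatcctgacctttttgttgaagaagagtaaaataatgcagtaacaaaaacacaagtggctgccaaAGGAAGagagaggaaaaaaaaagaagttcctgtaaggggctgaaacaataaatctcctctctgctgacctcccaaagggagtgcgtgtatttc
Windows were found for 6 of the 10 genes. The Eng window holds 2 ETS matches, beginning 52 and 6 bases before the start, and the Emcn window holds 2, beginning 174 and 93 bases before it. Among the other windows, Flt1 holds 2 matches, Tie1 holds 1 and Kdr and Tek hold 0. Other forms of ETS sites were not searched, so a window with 0 matches may still hold such sites. In all, 4 of 6 windows had a match, against 29.5% of 32851 windows of the same length. The KLF letters CACCC were in 5 of the 6 windows and in 52.0% of all, the SOX letters ACAAT in 2 and 27.7%, the GATA letters AGATAA in 0 and 9.99%, and TATAAA in 1, that of Flt1, and 12.4%. Each motif was searched on both strands and counted on its own, so matches of different motifs may overlap, and a match describes letters only.

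Emcn read 121.5, 121.5 and 110.0 in Wt and 252.0, 247.3 and 247.4 in Fn testes (probe set 1425582_a_at). The groups lay far apart, and the Fn arrays hardly differed from each other. The change was 1.08 (standard error 0.16, adjusted p = 3.26e-04 from limma), a ratio of geometric means of 2.12. It was read by this probe set alone.

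Eng had 2 probe sets, and both rose. The brighter, 1417271_a_at, gave signals of 302.7, 281.5 and 303.3 in Wt and 549.2, 512.8 and 872.1 in Fn. Every Fn array was above every Wt array, and Fn replicate 3 stood well above the other Fn arrays. The change was 1.08 (standard error 0.20, adjusted p = 0.00101 from limma), and 0.84 without Fn replicate 3 (adjusted p = 0.0011). The other probe set, 1432176_a_at, gave 138.7, 126.5 and 87.4 in Wt and 247.8, 229.8 and 214.4 in Fn, a change of 0.998 (adjusted p = 0.00261 from limma). In it Fn replicate 3 was the lowest Fn array, so the high value of that array was not shared by the second reading of the gene.

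Esam, an immunoglobulin-family adhesion molecule of endothelial tight junctions and platelets, had signals of 219.2, 194.5 and 192.6 in Wt and 331.9, 320.2 and 309.9 in Fn (probe set 1460356_at). The groups did not overlap, and the spread within each was small. The change was 0.67 (standard error 0.14, adjusted p = 0.00269 from limma), 1.59-fold. Of the 10 genes, Eng, Emcn and Esam were the 3 that rose under each of the 21 alternative settings.

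Vwf had signals of 107.1, 89.1 and 92.4 in Wt and 124.7, 147.7 and 149.7 in Fn (probe set 1435386_at), again without overlap. The change was 0.55 (standard error 0.20, adjusted p = 0.0395 from limma), 1.46-fold. The call did not hold under the replicate block or when any of 5 of the 6 arrays was left out, Wt replicate 2 or 3 or Fn replicate 1, 2 or 3 (adjusted p from 0.052 to 0.10). Over 21 alternatives its adjusted p ran from 0.0108 to 0.186, and it was lost under each of the other scalings.

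**Figure D1:**
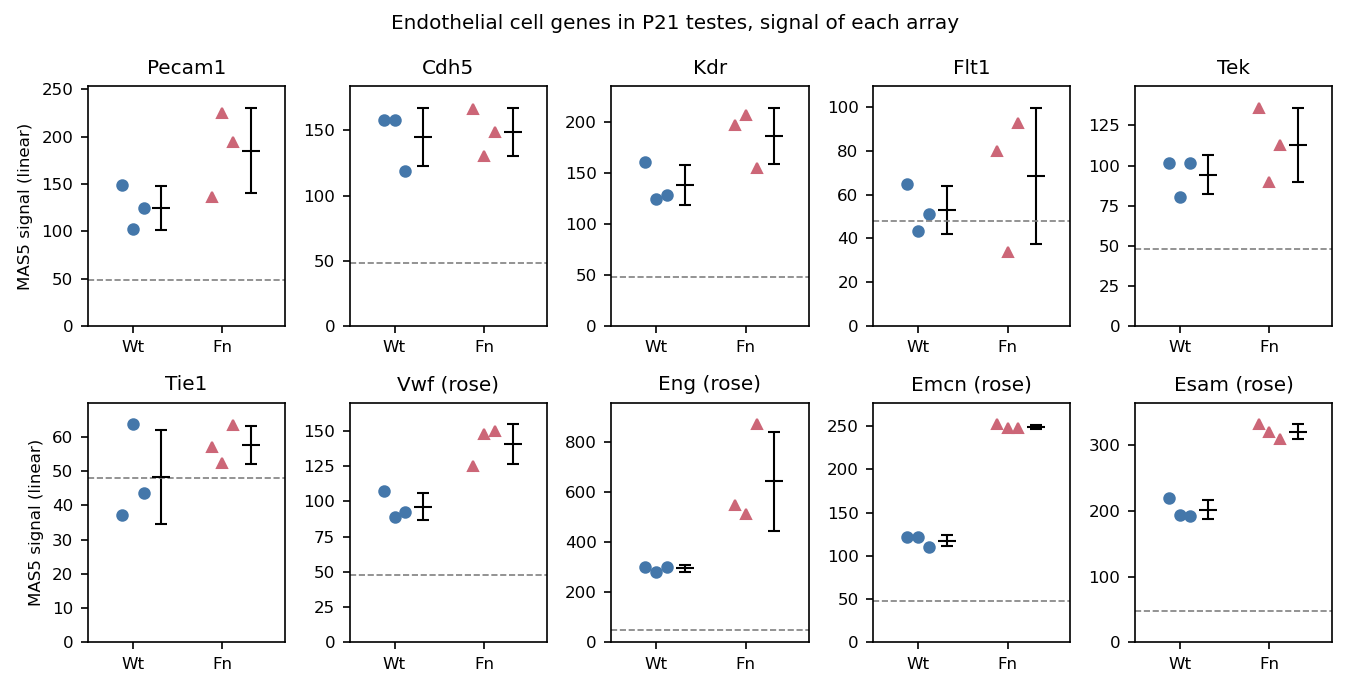
MAS5 signal on a linear axis from 0 of each endothelial gene, by its brightest probe set, at P21, with Wt arrays as circles and Fn arrays as triangles (3 of each) and the mean and SD beside them. A dashed line marks a signal of 48.0, the filter level, each panel has its own axis, and Vwf, Eng, Emcn and Esam are the genes without overlap between the groups.

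The adhesion genes Pecam1 and Cdh5, the classical endothelial markers, did not pass the test. Pecam1, or CD31, had signals of 148.5, 101.9 and 124.6 in Wt and 136.2, 224.9 and 194.7 in Fn (probe set 1421287_a_at). Fn replicate 1 lay below Wt replicate 1, so the groups overlapped. The change was 0.55, with a 95% interval of 0.015 to 1.09 (adjusted p = 0.0695 from limma). It was 0.76 without Fn replicate 1 (adjusted p = 0.0261), the 1 of 21 alternatives in which Pecam1 passed. Over the 21 its change ran from 0.34 to 0.76 and its adjusted p from 0.0261 to 0.233. In the reported fit, Pecam1 and Vwf had almost the same change and stood on either side of the threshold.

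Cdh5, which encodes VE-cadherin, the cadherin of endothelial adherens junctions, had signals of 158.1, 157.7 and 119.1 in Wt and 166.8, 130.4 and 149.0 in Fn (probe set 1433956_at). The arrays of both genotypes were interleaved. The change was 0.042, with a 95% interval of -0.41 to 0.50 (adjusted p = 0.866 from limma), the smallest of the 10 genes. Its direction depends on the scaling, since it was -0.12 after quantile normalization, -0.12 with the arrays centred on their medians and -0.087 with centring on the 75th percentile. The interval includes changes as large as the median of all genes. The other probe set of Cdh5, 1422047_at, lay under the filter with signals of 39.2, 42.7 and 45.7 in Wt and 26.1, 34.5 and 46.6 in Fn, and was not tested.

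None of the 4 receptor tyrosine kinase genes passed the test. Kdr, the main signalling receptor for VEGF-A, had signals of 160.5, 124.3 and 128.9 in Wt and 196.9, 207.1 and 155.0 in Fn (probe set 1449379_at). Fn replicate 3 lay below Wt replicate 1, and the other Fn arrays were above all Wt arrays. The change was 0.43, with a 95% interval of -0.011 to 0.88 (adjusted p = 0.0823 from limma). It passed without Fn replicate 3 (0.56, adjusted p = 0.0437) and with array weights (0.45, adjusted p = 0.0487). These were the 2 of 21 alternatives in which Kdr passed, and over the 21 its adjusted p reached 0.272.

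Flt1, the high-affinity VEGF receptor whose soluble form traps the ligand, had 4 probe sets, of which 3 passed the filter and none passed the test. The brightest, 1451756_at, gave 64.8, 43.2 and 51.3 in Wt and 79.7, 33.6 and 92.6 in Fn, where Fn replicate 2 was the lowest of the 6 arrays. Its change was 0.26, with a 95% interval of -0.67 to 1.20 (adjusted p = 0.602 from limma). The probe set 1454037_a_at gave 25.2, 54.5 and 48.9 in Wt and 73.3, 94.4 and 59.0 in Fn, a change of 0.87 (adjusted p = 0.0726 from limma). The probe set 1419300_at gave 38.8, 46.6 and 46.4 in Wt and 47.5, 72.8 and 78.7 in Fn, a change of 0.57 (adjusted p = 0.156 from limma). In these last 2 readings all Fn arrays were above all Wt arrays, whereas the brightest overlapped, and the Wt geometric means of both, 40.6 and 43.8, lay under the filter level. Which transcript forms each probe set reads is not known here. With these probe sets counted, 7 of 13 endothelial probe sets had all Fn values above all Wt values, where the background is 46.6%.

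Tek, the angiopoietin receptor TIE2, had signals of 101.7, 80.1 and 101.3 in Wt and 135.9, 89.6 and 113.1 in Fn (probe set 1418788_at). Only Fn replicate 2 lay within the Wt range. The change was 0.25, with a 95% interval of -0.30 to 0.79 (adjusted p = 0.396 from limma). Tie1 had 37.3, 63.6 and 43.5 in Wt and 57.0, 52.3 and 63.4 in Fn (probe set 1416238_at), with Wt replicate 2 the highest of the 6 arrays. Its change was 0.29, with a 95% interval of -0.45 to 1.03 (adjusted p = 0.461 from limma), and its Wt geometric mean of 46.9 lay under the filter level. For Flt1, Tek and Tie1 the intervals hold both 0 and the all-gene median of 0.32.

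**Figure D2:**
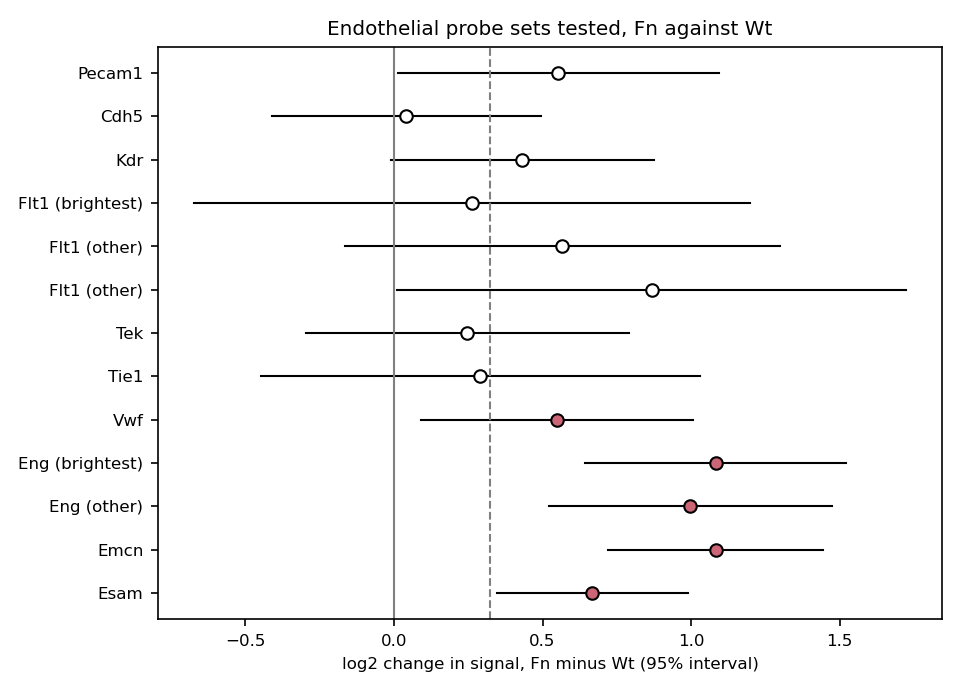
Log2 change in signal, Fn minus Wt, with its 95% interval from limma for the 13 endothelial probe sets tested (3 arrays per genotype). Filled points mark probe sets that rose, a grey line stands at 0 and a dashed one at 0.32, the all-gene median. The 5 filled points belong to Vwf, Eng, Emcn and Esam.

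Set against the Wt array of the same number, Kdr, Tek, Vwf, Eng, Emcn and Esam were higher in all 3 Fn arrays, and Pecam1, Cdh5, Flt1 and Tie1 in 2 of 3. The share of all genes higher in all 3 was not counted, and 64.2% of all genes had a mean change above 0. The median difference over the 10 genes was 0.36, 0.72 and 0.67 for numbers 1, 2 and 3, and over all genes it was 0.27, 0.29 and 0.33. For number 1, where the endothelial median was the lowest, Wt replicate 1 was the Wt array with the highest endothelial signals. In that array the median deviation of the 10 genes from their own 6-array mean was -0.063, against -0.38 in Wt replicate 2 and -0.30 in Wt replicate 3. In Fn replicates 1, 2 and 3 it was 0.33, 0.29 and 0.33. All genes tested leaned the same way, with median deviations from that mean of 0.14, 0.14 and 0.16 in the Fn arrays. In each Wt array the all-gene median deviation was below 0. Fn replicate 2 gave the lowest Fn signal of Cdh5, Flt1, Tek, Tie1, Eng and Emcn and the highest of Pecam1 and Kdr, so the order of the Fn arrays differed from gene to gene. Without Wt replicate 1 the median change of the 10 genes was 0.59.

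**Figure D3:**
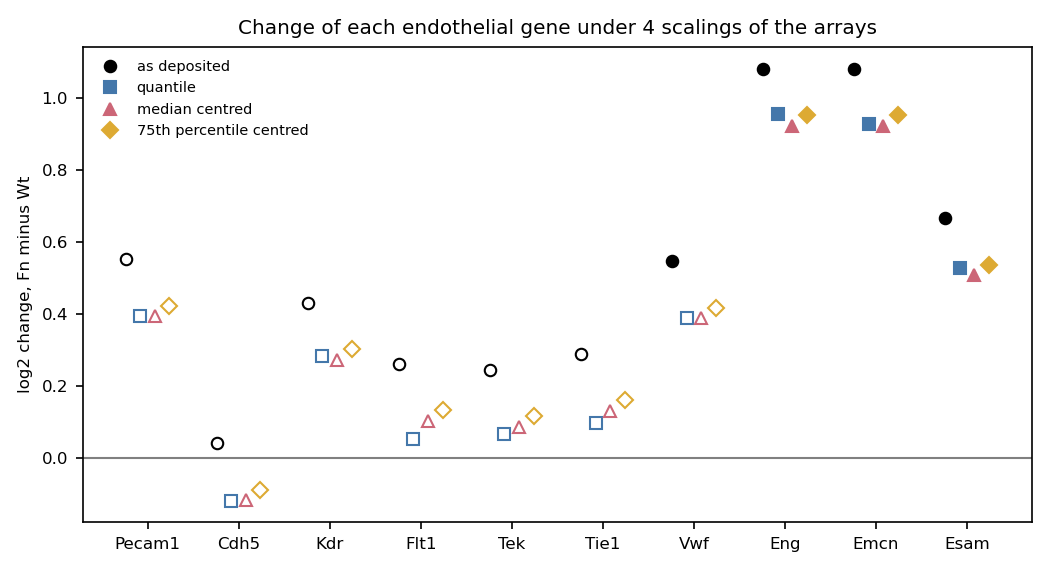
Endothelial genes by their log2 change between genotypes (Fn minus Wt) under 4 scalings of the arrays: as deposited (circles), quantile normalized (squares), centred on the array medians (triangles) and centred on the 75th percentile (diamonds). Filled symbols passed an adjusted p under 0.05 from limma in that fit. Eng, Emcn and Esam are filled under all 4, Vwf only as deposited, and Cdh5 is below 0 under the other 3.

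The scaling moved all the endothelial genes together. As deposited, 11306 probe sets rose and 5453 fell, whereas after median centring 8170 rose and 6180 fell. The median change of the 10 endothelial genes was then 0.33, and 3 of 10 genes rose, beside 33.1% of all genes tested. After quantile normalization the median was 0.34, and 3 of 10 rose, beside 40.5%. After centring on the 75th percentile 3 of 10 rose, beside 37.7%. The changes of Eng and Emcn stayed between 0.92 and 0.96 under the 3 other scalings, and that of Esam between 0.51 and 0.54.

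A wider list of endothelial markers had a larger share of rises than the 10 genes. Of 20 such genes tested of 22 listed, 18 rose and 0 fell, with a median of 0.93, and 17 rose under each of the other scalings. The 18 include Plvap and Selp, named after their values were seen, whose mean Wt signals of 41.0 and 38.1 lay under the filter level, so that they were tested through their Fn signals. Of the 18 genes with both group means above that level, 16 rose. The difference between this list and the 10 genes was not tested. Cd34, a sialomucin of capillaries and progenitor cells, had signals of 731.0, 713.5 and 575.4 in Wt and 1475.5, 1354.7 and 1540.0 in Fn, a change of 1.12 (adjusted p = 5.5e-05 from limma). Calcrl, the receptor that binds adrenomedullin with the product of Ramp2, rose by 1.47, the apelin receptor gene Aplnr by 1.36, Ecscr by 1.19 and Cd93 by 1.09. The 2 genes that did not pass, named after their values were seen, were Icam2 (0.54, adjusted p = 0.114) and the tight junction gene Cldn5 (0.25, adjusted p = 0.129).

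Of 18 transcription factor genes used by endothelial cells, 12 rose and 2 fell, with a median of 0.80. The counts were 11 and 3 after quantile normalization, 10 and 3 after median centring and 12 and 3 after centring on the 75th percentile. Of the 12, Foxc2, named after its value was seen, had a mean Wt signal of 47.3, under the filter level. The ETS family genes Ets2, Elk3 and Ets1 rose by 1.55, 1.33 and 1.29, the homeobox gene Hhex by 1.26 and Foxo1 by 0.97. Many of these genes are also used by other cells of the testis. The 2 that fell, named after their values were seen, are both SOX genes, Sox7 with -1.23 (adjusted p = 0.00462 from limma) and Sox17 with -0.59 (adjusted p = 0.0277). Sox18, of the same subfamily and also chosen after its value was seen, rose by 0.66 (adjusted p = 0.00664).

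Ligands and partners of the endothelial receptors varied among themselves. Of 7 VEGF and angiopoietin genes tested of 8 listed, 2 rose and 0 fell, or 1 fell after quantile normalization and after centring on the 75th percentile. Vegfa, the main vascular growth factor, had signals of 146.3, 126.0 and 86.9 in Wt and 269.2, 237.6 and 228.9 in Fn, a change of 1.06 (adjusted p = 0.00221 from limma). Vegfc, which acts on lymphatic vessels, had 37.1, 49.1 and 39.9 in Wt and 98.8, 114.5 and 92.7 in Fn, a change of 1.28 (adjusted p = 0.00267 from limma). All its Wt signals but that of replicate 2 lay under the filter level, as did their mean of 42.0, so Vegfc was tested through its Fn signals and the size of its change is uncertain. Its receptor gene Flt4 rose by 1.26, the VEGF co-receptor gene Nrp1 by 0.94 and the phospholipase gene Plcg1 by 0.65, and these were the 3 of 6 receptor and effector genes that rose, with 0 falls.

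Of 15 genes of TGF-beta and BMP signalling, in which endoglin acts, 9 rose and 3 fell as deposited, and 8 and 3 under each of the other scalings. The BMP receptor gene Bmpr2 rose by 1.32, Id3, a target of BMP signals, by 1.19 and Tgfbr2 by 0.98. Smad6, an inhibitor of BMP signals, fell with -1.50, Smad1, a transducer, with -0.82 and Smad9, named after its value was seen, with -1.19. The mean Fn signal of Smad9, 40.4, lay under the filter level, so the size of its change is uncertain. The other SMAD genes of the list, also named after their values were seen, were Smad7, an inhibitor like Smad6, which rose by 1.001 (adjusted p = 8.56e-04), and Smad5, which had 0.20 and did not pass. Of 6 catenin and junction genes that join cadherins to the cytoskeleton, 5 rose, or 4 under each of the other scalings. Vcl rose by 1.22 and Ctnna1 by 0.79. Of 5 Notch genes 3 rose, namely Notch1, Jag1 and Jag2, by 1.11, 1.11 and 0.78. The Notch genes that did not pass, named after their values were seen, were Notch4 with -0.62 (adjusted p = 0.118 from limma) and Dll4 with 0.076 (adjusted p = 0.817). Beside all these counts as deposited, the background is 44.9% rising and 24.7% falling. Beside the counts of rises under the other scalings it is 40.5% after quantile normalization, 33.1% after median centring and 37.7% after centring on the 75th percentile. Most of the genes are transcribed well beyond the endothelium.

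**Figure D4:**
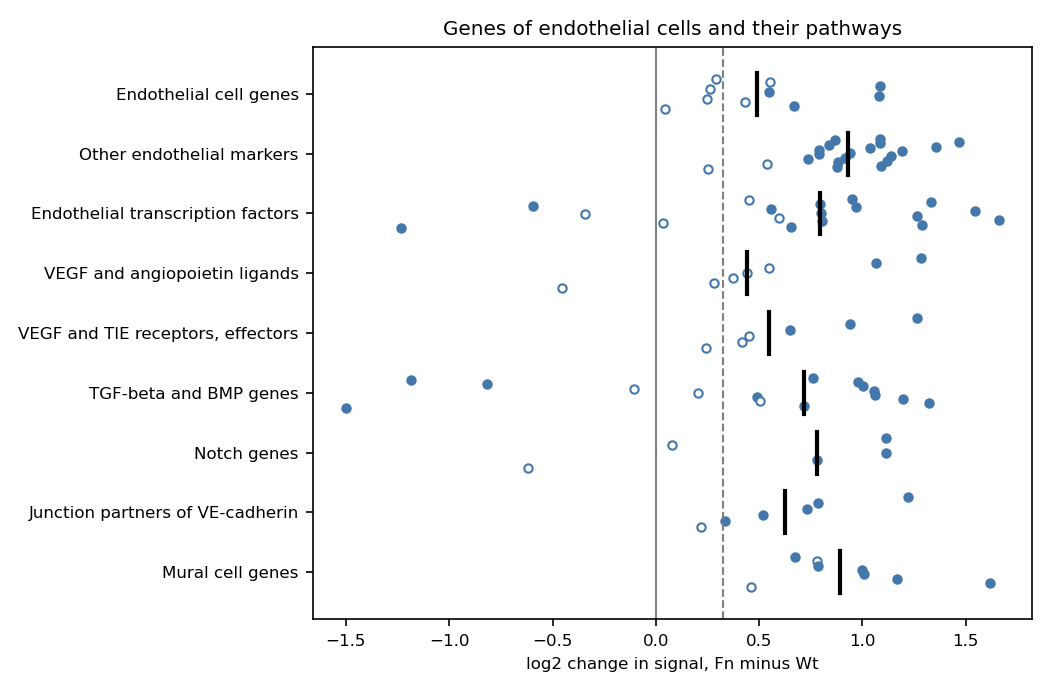
Genes of 9 lists by their log2 change between Fn and Wt testes at P21 (3 arrays each, Fn minus Wt). A filled point has an adjusted p under 0.05 from limma, a bar gives the median of its list, grey marks 0 and dashes mark the all-gene value of 0.32. The median is 0.49 for the 10 endothelial genes and 0.93 for the other endothelial markers.

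Markers of other cell types moved between the genotypes as well, and their part in the endothelial values was not tested. Beside the counts of all the cell type lists, 44.9% of all genes tested rose and 24.7% fell as deposited. The share that rose was 40.5% after quantile normalization, 33.1% after median centring and 37.7% after centring on the 75th percentile. The summed signal of the 10 endothelial genes was 1257.4 to 1421.4 in Wt and 1965.9 to 2346.9 in Fn arrays. A sum is weighted to the brightest genes, and the mean of Eng alone was 295.8 in Wt and 644.7 in Fn. Taken singly, 6 of the 10 genes overlapped between the genotypes. Of all genes tested, 48.9% had all Fn values above all Wt values and 26.6% had all of them below. Of 8 mural cell genes, of the pericytes and smooth muscle around vessels, 6 rose and 0 fell, or 5 rose under each of the other scalings. Pdgfrb rose by 1.17, and the mural sums were 1366.1 to 1386.3 in Wt and 2397.2 to 2746.1 in Fn. Of the lymphatic markers tested, Lyve1 rose and Pdpn did not pass, while Prox1, named because it defines lymphatic cells, was not tested. The platelet and megakaryocyte list had 3 of 8 genes tested, with sums of 722.6 to 873.5 in Wt and 1217.6 to 1338.5 in Fn, and only Pf4 rose (0.78). Pf4 made up most of these sums, with means of 601.5 in Wt and 1028.6 in Fn, and the other 2 genes tested did not pass. The platelet genes Ppbp, Gp9, Itgb3 and Treml1 were not tested. Of 8 macrophage genes 5 rose and Aif1 fell, with sums of 4607.2 to 5724.8 in Wt and 5947.3 to 8437.7 in Fn, or 0 rose with the arrays centred on their medians. Of 5 erythroid genes 1, Alas2, was tested, and it rose.

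Sertoli cell genes had sums of 23151.4 to 26717.4 in Wt and 37382.3 to 38217.5 in Fn, with 7 of 8 rising. All 5 peritubular myoid genes rose as deposited, or 4 with the arrays centred on their medians or their 75th percentile. The myoid sums were 10176.2 to 12318.9 in Wt and 18202.3 to 19726.8 in Fn. Leydig cell genes overlapped, with 6051.4 to 10021 in Wt and 6000.8 to 11817.7 in Fn and 2 of 4 rising, or 0 with the arrays centred on their medians. The 6 pachytene spermatocyte genes summed to 49585.3 to 52018.1 in Wt and 12113.1 to 18410.6 in Fn, with 5 falls, and the 6 round spermatid genes all fell, from 24986.2 to 28432.9 in Wt to 2064.9 to 2749.5 in Fn. Among the genes that rose or fell, Kcnj8 of the mural list (Wt), Ccna1 of the pachytene list (Fn) and Acrv1 of the round spermatid list (Fn), chosen after their values were seen, had a mean under the filter level in the genotype given. Of the genes tested in these lists, 0 values were at 0 in any array.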

How the data were processed

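Total RNA of P21 testes from 3 Wt and 3 Fn samples was hybridised to 6 one-colour arrays. The deposited values are MAS5 intensities on a linear scale, 1 per probe set, and the submitters' processing notes name MAS5 but give no version. The authors used GeneSpring, and their text names no test or dim-signal filter for this array. The mean of each array without its highest and lowest 2% of values was 498.4 to 498.6. Detection calls were not used here, so a dim signal cannot be told from background, and the number of arrays limits the precision.

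Symbols came from the platform annotation (34945 probe sets name 1 gene, 932 several, 9160 none), and all 15 endothelial probe sets matched the RefSeq table. The single 0 was set to 0.1, and log2 signals were fitted in R 4.3.3 with limma 3.58.1 (eBayes with trend). Promoter windows are RefSeq's, of GRCm38.p6. Members, lists and tests were chosen with earlier results of these data known. Named genes are the 10 members, up to 5 called genes with the smallest p per pathway list and up to 3 per cell type list. Pdpn, Prox1 and the untested platelet genes are named besides, to account for their lists. Columns left unused numbered 0.

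Same-numbered Wt and Fn arrays deviated together across probe sets (r = 0.13, 0.12 and 0.16, other pairs -0.15 to 0.035). Deviations were taken from the mean of each genotype, so the r values of same-numbered and other pairs depend on each other. Whether the numbers pair the samples was not tested, and no source states a shared litter or day. The reported fit has no block, and the fit with the replicate number as a block was an alternative. On simulated data for Fn against Wt (3 arrays each, 27022 probe sets) 48% of 50 probe sets raised by 1 on the log2 scale and 92% of 50 raised by 2 were recovered, and 32% of 50 lowered by 1 and 76% of 50 lowered by 2. Far fewer probe sets were changed there than the 11306 that rose and 5453 that fell in the data. The adjusted threshold therefore differs, and these shares do not give the power of the reported fit. Alternatives covered scaling, filter, pseudocount, prior, array weights, probe set choice, threshold, the block and each array left out.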

Additional observations from a re-analysis of the deposited data

How the results depend on the processing

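Eng, Emcn and Esam kept their direction and their adjusted p under 0.05 in each of 21 alternatives, 19 planned and 2, the replicate block joined to another scaling, added after the data were seen. The count of endothelial probe sets that rose was 5 of 13, and it was 4 of 15 with no filter, 5 of 9 with the filter at the median, 6 of 13 with array weights and 4 or 5 of 13 otherwise, beside 23.9%, 46.7%, 44.6% and 30.2% to 43.3% of all probe sets at an adjusted p under 0.05. In each, 0 fell. The median log2 change of the 10 genes, 0.49, was 0.34 after quantile normalization, 0.33 and 0.36 with centring on the medians and on the 75th percentile, 0.42 with array weights, 0.55 with the filter at the median (which drops Flt1 and Tie1) and 0.45 to 0.59 without 1 array, and under the replicate block it was 0.33 with median centring and 0.34 with quantile normalization. Relative to all genes it was 0.17, from 0.090 after quantile normalization to 0.26 without Wt replicate 1. With the replicate block alone the median was 0.49, 4 endothelial probe sets rose, and Vwf (adjusted p = 0.0593) was the call lost among the 10 genes. Cdh5 turned below 0 with -0.12 after quantile normalization, -0.12 with median centring, -0.087 with 75th percentile centring, -0.12 with the mean of its probe sets, -0.094 without Wt replicate 3, -0.044 without Fn replicate 1, and, under the replicate block, -0.12 with median centring and -0.12 with quantile normalization. Without 1 array the change of Cdh5 reached 0.13 at most, and that of Flt1 ran from -0.017 (without Fn replicate 3) to 0.71 (without Fn replicate 2). The shift between scalings follows from their construction, and the cause of the other changes was not tested.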
